A study of Oryza sativa with 6 samples.

Results

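The xylan backbone and side-chain glycosyltransferases were examined in rice roots under low N as 7 of the 55982 loci with a value in every library. They were taken by MSU locus name, and were chosen with earlier results of these data known. The backbone genes are *OsIRX9* (LOC_Os07g49370, chromosome 7), *OsIRX9L* (LOC_Os01g48440, chromosome 1), *OsIRX14* (LOC_Os06g47340, chromosome 6) and *OsIRX10* (LOC_Os01g70200, chromosome 1). The side-chain genes are *OsXAX1* (LOC_Os02g22380) and *OsXAT2* (LOC_Os02g22480) on chromosome 2 and *OsXAT3* (LOC_Os03g37010) on chromosome 3. RNA-seq was performed on roots of the WT (cultivar ZH11) and of OE15 and OE20, each a separate transgenic line in ZH11 in which the cauliflower mosaic virus 35S promoter drives the *OsMYB305* coding sequence. Seedlings were 14 days old and had grown with 0.288 mM NH4NO3, and 2 libraries were sequenced per genotype, 6 in all. No line that carries an empty vector was among the samples, so *OsMYB305* overexpression and transformation itself cannot be told apart. Nothing states that the 2 libraries of a genotype came from separate plants or cultures, so the p-values measure the spread between these libraries, which may be technical.

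Xylan is the main hemicellulose of grass cell walls and is abundant in the secondary walls of xylem and fibres, where it coats cellulose microfibrils. Its backbone is a chain of xylose units built in the Golgi by a complex of glycosyltransferases. Members of family GT43 (the IRX9 and IRX14 groups) and of family GT47 (the IRX10 group) act in it, and in Arabidopsis their loss gives collapsed, irregular xylem. Grass xylan also carries many arabinose side chains, some of which bear a further xylose or a ferulate that links the wall to lignin. These side chains are added by family GT61, to which the XAT arabinosyltransferases and XAX1 belong.

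The values are FPKM, the fragments assigned to a locus scaled to transcript length and to the mapped fragments, as the authors deposited them. Because FPKM is divided by length, levels can be set side by side between genes. All 7 genes were above the minimum mean of 1 FPKM over the 6 libraries, as were 20627 loci in all, and these were tested with limma on log2(FPKM + 0.1). A gene that passed the test had a Benjamini-Hochberg adjusted p under 0.05 over all loci tested. It was called differentially expressed when the change was also above 1.5-fold. FPKM keeps no read totals. The steps between the lowest values put the depth of the libraries between 0.983 and 1.36 of that of WT replicate 1. The overexpressed gene had 0.0388 and 0.0576 FPKM in the 2 WT libraries, 150.2 and 148 in those of OE15 and 81.3 and 80.2 in those of OE20, as the labels of the genotypes have it. The 3 root nitrate uptake genes *OsNRT2.1*, *OsNRT2.2* and *OsNAR2.1* summed to 100.2 to 106 FPKM for WT, 145 to 149 for OE15 and 144 to 146 for OE20. Of 8 leaf photosynthesis loci listed from general knowledge, 7 are in the files and none was at 0 throughout. Their summed level ran from 202 to 210.1 FPKM for WT, 209 to 211 for OE15 and 196 to 201 for OE20, and its part in the results was not tested.

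The members of the group covered a wide span of expression in WT roots. *OsIRX14* was the highest, at 135 ± 2.40 FPKM (SD, n = 2), above 95.7% of the loci tested. *OsIRX10* followed at 71.4 ± 1.12 FPKM, *OsXAT3* at 54.6 ± 0.793 FPKM, *OsXAX1* at 44.8 ± 0.440 FPKM, *OsIRX9L* at 25.2 ± 0.749 FPKM and *OsXAT2* at 17.6 ± 0.0479 FPKM. *OsIRX9* was by far the lowest, at 3.08 ± 0.593 FPKM, above 19.7% of the loci tested. The ranges of neighbours in this order did not overlap in any genotype. *OsIRX9L* exceeded *OsIRX9*, its relative in GT43, by 7.37 and 9.29 times in the WT libraries, by 12.3 and 12.4 times in OE15 and by 9.64 and 11.2 times in OE20. The order differed between genotypes at 1 place. *OsXAT3* stood below *OsIRX10* in the WT and above it in both lines, although in OE20 the gap was small, with 60.0 FPKM in both *OsIRX10* libraries against 60.5 and 62.2 FPKM for *OsXAT3*.

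**Figure D1:**
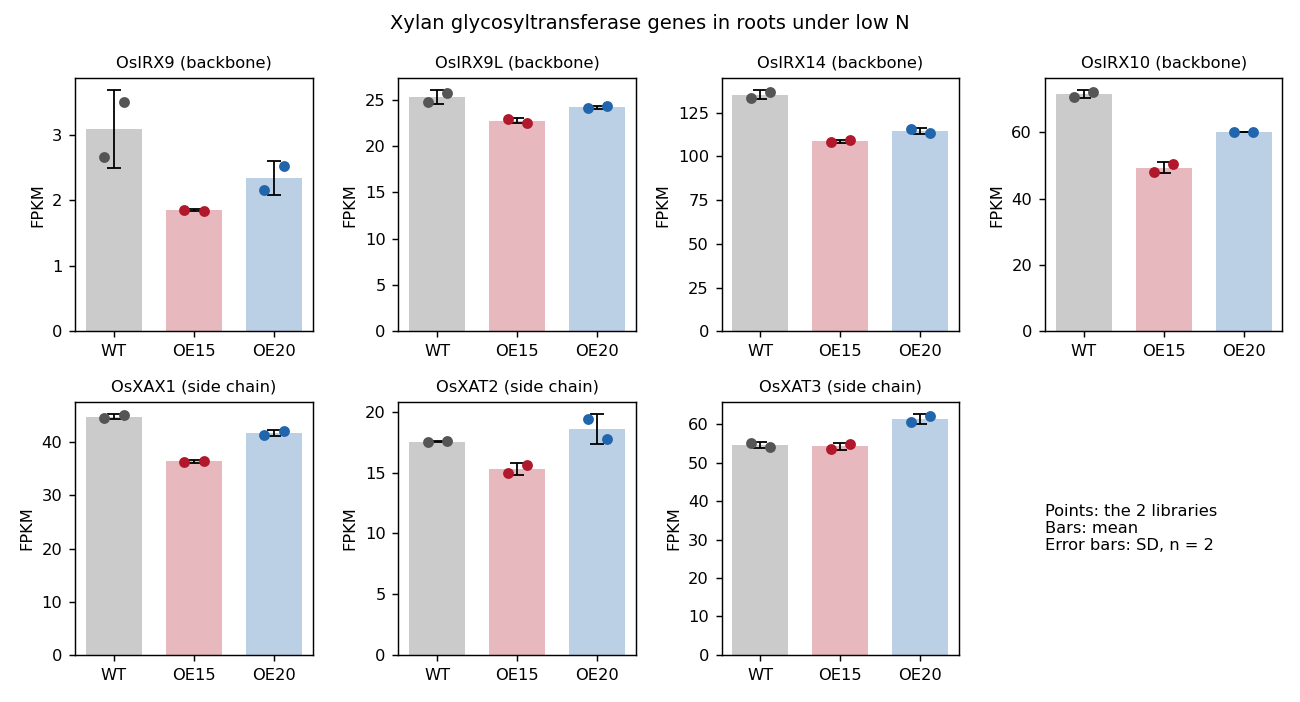
FPKM (y axis) of the 7 xylan glycosyltransferase genes in WT, OE15 and OE20 roots (x axis), with points for the 2 libraries, bars for the mean and error bars for the SD (n = 2). All 4 backbone genes and *OsXAX1* step down from the WT to OE20 to OE15 without overlap, whereas *OsXAT3* is highest in OE20.

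The first question was whether xylan glycosyltransferase transcripts differed in the *OsMYB305*-OE roots. In OE15 they were mostly lower. *OsIRX10*, *OsIRX14*, *OsIRX9* and *OsXAX1* passed the test and fell, and the other 3 genes did not pass. These 4 falls stand against a background of 9.89% of all tested loci that passed the test and were lower in OE15. Only the fall of *OsIRX9* was above 1.5-fold, 1 of 7 genes against a background of 2.59%. In OE20, *OsIRX10* and *OsIRX14* fell (background 5.47%), *OsXAT3* rose (background 6.4%), and none of the 7 was past 1.5-fold (backgrounds 1.64% lower and 1.46% higher). At an unadjusted p under 0.05 from limma, 6 of the 7 genes differed in OE15 and 4 in OE20, beside 34.5% and 27.4% of all loci tested. The median log2 fold change of the 7 genes was -0.30 in OE15 and -0.10 in OE20, beside 0.02 and 0.02 over all loci tested. It was below 0 for all 7 genes in OE15 and for 5 in OE20, and for 45.4% and 45.9% of the loci tested. Both contrasts share the WT libraries. In bulk roots, fewer cells that make secondary walls and less of these transcripts per cell cannot be told apart. Transcript levels do not measure the amount of xylan, which was not determined here. The study measured hemicellulose in roots and shoots of its *OsMYB305*-OE lines and reported no difference from the WT.

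*OsIRX10*, whose Arabidopsis relatives extend the xylan chain, had the fall with the smallest adjusted p. It had 70.7 and 72.2 FPKM for WT, 48.1 and 50.4 for OE15 and 60.0 and 60.0 for OE20. The 3 genotypes did not overlap, and OE20 lay between the WT and OE15. *OsIRX10* fell by 31.0% in OE15 and fell by 16.0% in OE20. On the log2 scale this was -0.54 and -0.25 (standard error, SE, 0.038 with a limma adjusted p of 0.000194 and 0.00838). Its change in OE15 was thus 1.45-fold, just short of the 1.5-fold limit. In OE20 the adjusted p was 0.0551 and 0.0532 when either OE20 library was left out. LOC_Os01g70190 and LOC_Os01g70180 are the loci listed just before *OsIRX10*, and how reads shared by similar copies were assigned is not stated. LOC_Os01g70190 had 32.6 and 30.5 FPKM for WT and 27.1 and 26.0 for OE15, where it fell by 0.25 on the log2 scale (SE 0.052 with a limma adjusted p of 0.0159). LOC_Os01g70180 had a log2 fold change of -0.08 in OE15 (95% interval -0.20 to 0.03).

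*OsIRX14*, of the GT43 group that pairs with IRX9 in the Arabidopsis backbone complex, was the most abundant member and fell in both lines. It had 134 and 137 FPKM for WT, 108 and 109 for OE15 and 116 and 113 for OE20. All 4 OE libraries were below both WT libraries, and the OE15 libraries were below the OE20 libraries. Its log2 fold changes were -0.32 in OE15 and -0.24 in OE20 (SE 0.032 with a limma adjusted p of 0.000788 and 0.00477). In absolute FPKM this was the largest decrease of the 7 genes, from a mean of 135 to 109 and 115 FPKM.

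*OsIRX9*, the second GT43 backbone gene, had the largest fold change and the least certain one. It had 2.66 and 3.50 FPKM for WT, 1.86 and 1.83 for OE15 and 2.15 and 2.52 for OE20. The genotypes did not overlap, but the WT libraries differed from each other by as much as the lower of them did from OE15. The log2 fold change was -0.70 in OE15 (SE 0.17 with a limma adjusted p of 0.0286) and -0.38 in OE20 (95% interval -0.78 to 0.02, adjusted p = 0.206). Without WT replicate 2 the log2 fold change in OE15 was -0.51 and the adjusted p was 0.132. The adjusted p was also above 0.05 without either OE15 library, at 0.106 and 0.115, and when loci of any mean level were tested, at 0.0883.

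*OsIRX9L*, the more abundant IRX9-type gene in these roots, differed least among the backbone genes. It had 24.7 and 25.8 FPKM for WT, 22.97 and 22.5 for OE15 and 24.1 and 24.3 for OE20. Its libraries followed the same order of genotypes as those of *OsIRX10*, with smaller gaps. The log2 fold change was -0.15 in OE15 (95% interval -0.26 to -0.04, adjusted p = 0.0584 from limma) and -0.06 in OE20 (95% interval -0.17 to 0.05, adjusted p = 0.432). The value in OE15 passed the test under quantile normalization (adjusted p = 0.0304), under median-ratio scaling (0.0343) and with a minimum mean of 5 FPKM (0.0472).

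Among the side-chain genes, *OsXAX1* passed the test in OE15 and fell. *OsXAX1* is required in rice for the xylose that caps some arabinose side chains. It had 44.5 and 45.2 FPKM for WT, 36.3 and 36.6 for OE15 and 41.4 and 42.1 for OE20. The 3 genotypes did not overlap. The log2 fold change was -0.30 in OE15 (SE 0.037 with a limma adjusted p of 0.00183) and -0.10 in OE20 (95% interval -0.19 to -0.02, adjusted p = 0.124).

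*OsXAT2* and *OsXAT3* belong to the arabinosyltransferases that attach arabinose to the xylan chain. *OsXAT2* had 17.5 and 17.6 FPKM for WT, 15.0 and 15.6 for OE15 and 19.5 and 17.7 for OE20. Its OE15 libraries were below and its OE20 libraries above those of the WT, the latter by a margin that was lost under median-ratio scaling. The log2 fold change was -0.20 in OE15 (95% interval -0.34 to -0.06, adjusted p = 0.0602 from limma) and 0.08 in OE20 (95% interval -0.06 to 0.22, adjusted p = 0.447). In OE15 it passed the test under quantile normalization, median-ratio scaling and a minimum mean of 5 FPKM, with adjusted p of 0.0426, 0.0449 and 0.0457.

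*OsXAT3*, the most abundant side-chain gene, had 55.2 and 54.1 FPKM for WT, 53.6 and 54.9 for OE15 and 60.5 and 62.2 for OE20. The OE15 and WT libraries overlapped, and both OE20 libraries lay above the other 4. In OE15 the log2 fold change was -0.01 (95% interval -0.10 to 0.08, adjusted p = 0.862 from limma), and its sign turned under 2 of the 17 alternatives tried. In OE20 *OsXAT3* rose by 0.17 on the log2 scale (SE 0.037 with an adjusted p of 0.031). It no longer passed in 11 of the 17 alternatives, 1 of them a stricter limit on the adjusted p. With all libraries and no trend in limma, the adjusted p was 0.119. Among them were each library left out in turn and the replicate number as a block (adjusted p = 0.0505 with the replicate block).

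**Figure D2:**
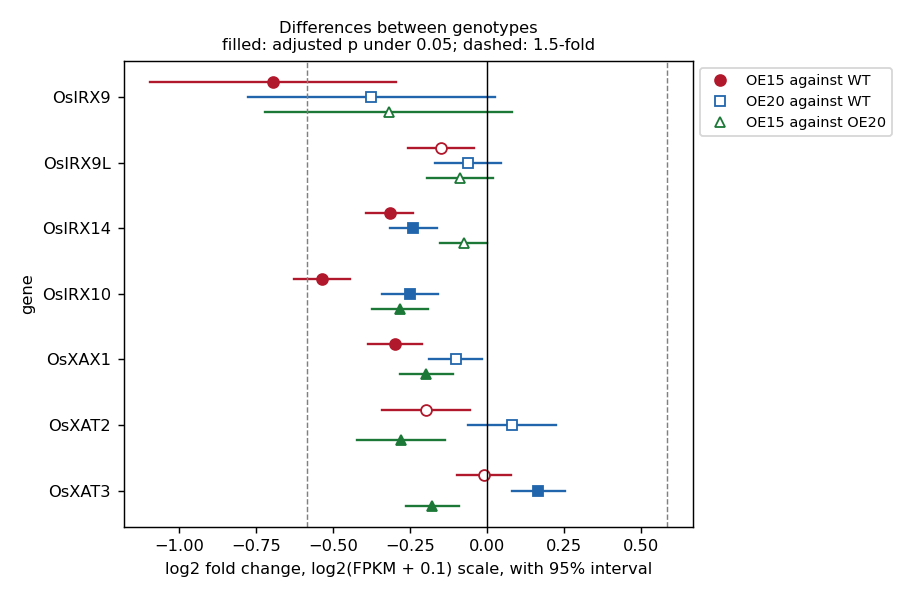
Log2 fold changes on the log2(FPKM + 0.1) scale (x axis) with 95% intervals from limma for each gene (y axis), for each line against WT and for OE15 against OE20. Filled symbols have an adjusted p under 0.05 and dashed lines mark 1.5-fold. The 4 backbone genes lie to the left of 0 in every contrast, and *OsXAT3* lies to the right only in OE20 against WT.

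The transcripts of the 2 lines were then compared with each other. OE15 carried the higher level of *OsMYB305*. Each is a separate transgenic line, so this level and other differences between the lines cannot be told apart. *OsIRX10*, *OsXAX1*, *OsXAT2* and *OsXAT3* were lower in OE15 than in OE20 by the test, 4 of 7 genes against a background of 6.12% of tested loci, and none was higher (background 5.45%). None of the 7 differences was above 1.5-fold (backgrounds 0.863% lower and 1.2% higher). The fitted difference was below 0 for all 7 genes and for 48.3% of the loci tested. The log2 difference was -0.28 for *OsIRX10* (SE 0.038 with a limma adjusted p of 0.00595), -0.20 for *OsXAX1* (SE 0.037 with an adjusted p of 0.0185), -0.28 for *OsXAT2* (SE 0.061 with an adjusted p of 0.0306) and -0.18 for *OsXAT3* (SE 0.037 with an adjusted p of 0.0268). For *OsIRX14* it was -0.08 (95% interval -0.15 to 0.00, adjusted p = 0.181), for *OsIRX9L* -0.09 (95% interval -0.19 to 0.02, adjusted p = 0.264) and for *OsIRX9* -0.32 (95% interval -0.72 to 0.08, adjusted p = 0.277). Without the trend in limma none of the 7 passed, with adjusted p of 0.0528 for *OsIRX10*, 0.0834 for *OsXAX1*, 0.0855 for *OsXAT2* and 0.109 for *OsXAT3*. For *OsXAX1* and *OsXAT3* the adjusted p also rose above 0.05 when any 1 of the 4 OE libraries was left out, reaching 0.102 and 0.14. For *OsXAT2* it did so without either OE15 library or without OE20 replicate 1, reaching 0.155.

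Taken library by library, the OE15 values were below the WT values for 6 of the 7 genes, against 28.1% of the loci tested, and the OE20 values for 5, against 25%. All 4 OE libraries lay below both WT libraries for 5 genes, against 14.8%. All 7 genes were lower in both OE15 libraries than in both OE20 libraries, against 28.1%. The order OE15 below OE20 below WT without overlap was found for 5 genes, *OsIRX9*, *OsIRX9L*, *OsIRX14*, *OsIRX10* and *OsXAX1*, and for 5.57% of the loci tested. The 7 genes were measured in the same 6 libraries, so they are not independent of each other. Under median-ratio scaling the counts below were the same, and only the place of *OsXAT2* in OE20 changed.

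The make-up of the xylan glycosyltransferase transcripts differed between the WT and the OE libraries. The summed share of the 4 backbone genes was smaller in the latter, though not that of every backbone gene. The summed FPKM of the 4 backbone genes was 232 and 239 in the WT, 181 and 184 in OE15 and 202 and 200.2 in OE20. That of the 3 side-chain genes was 117 and 117 in the WT, 105 and 107 in OE15 and 121 and 122 in OE20. The ratio of the backbone to the side-chain sum, which a single scaling factor per library does not alter, was 1.98 and 2.04 in the WT, 1.73 and 1.72 in OE15 and 1.67 and 1.64 in OE20. The WT libraries were above all OE libraries, and the ratio was lowest in OE20, where *OsXAT3* was highest. *OsXAT3* made up 15.8% and 15.2% of the summed FPKM of the 7 genes in the WT, 18.7% and 18.9% in OE15 and 18.7% and 19.3% in OE20. *OsIRX10* made up 20.2% and 20.3% in the WT, 16.8% and 17.3% in OE15 and 18.6% and 18.6% in OE20. *OsIRX14* made up 38.3% and 38.6% in the WT, 37.8% and 37.5% in OE15 and 35.8% and 35.2% in OE20. *OsIRX9L* alone of the backbone genes had a larger share in every OE library than in the WT. It made up 7.08% and 7.25% in the WT, 8.04% and 7.74% in OE15 and 7.44% and 7.54% in OE20. The share of *OsXAX1* ran from 12.6% to 13.1% over the 6 libraries. These sums and shares are descriptions, and no test was run on them.

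**Figure D3:**
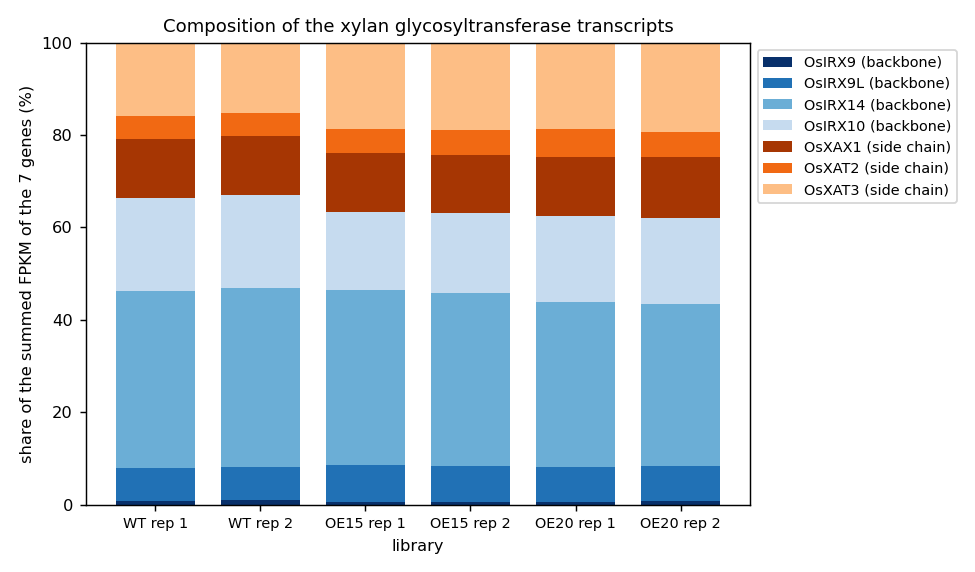
Share of each gene in the summed FPKM of the 7 xylan glycosyltransferase genes (y axis, in percent) in each library (x axis), with the backbone genes in blue and the side-chain genes in orange. The share of *OsXAT3* is 15.2% to 15.8% in the WT and 18.7% to 19.3% in the OE libraries.

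The xylan genes were set beside genes of secondary wall synthesis, which were picked by the study on these same libraries, so their direction is not independent evidence. *OsCESA4*, *OsCESA7* and *OsCESA9*, the catalytic subunits of the secondary wall cellulose synthase, summed to 208 and 222 FPKM for WT, 119.6 and 119.3 for OE15 and 138 and 139 for OE20. The change in the mean of this sum was -44.5% in OE15 and -35.6% in OE20. The sum of the 7 xylan genes was 349 and 355 FPKM in the WT libraries, 286 and 291 in those of OE15 and 323 and 322 in those of OE20, with a change in the mean of -18.1% and -8.34%. Within a library, the cellulose synthases had 0.596 and 0.625 times the summed FPKM of the xylan genes in the WT, 0.418 and 0.410 times in OE15 and 0.426 and 0.432 times in OE20. The *OsCESA* log2 fold changes were -0.79, -0.82 and -0.94 in OE15 and -0.56, -0.59 and -0.76 in OE20, all 6 beyond those of each xylan gene in the same line. The list of the study has 12 secondary wall genes, with genes of lignin synthesis besides those of cellulose. Of these, 9 were called lower and 1 higher in OE15 (backgrounds 2.59% and 2.9%) and 5 lower in OE20 (background 1.64%). The median log2 fold change was -0.80 and -0.54. The gene called higher was *OsMYB31*, which the study describes as a negative regulator of secondary wall synthesis. The difference between these lists and the xylan genes was not tested.

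Across the 6 libraries, *OsIRX14* had the profile nearest to the cellulose synthases. The Pearson correlation of its log2(FPKM + 0.1) was 0.997 with *OsCESA9*, 0.993 with *OsCESA4* and 0.991 with *OsCESA7*, and only 4 of the other 20620 tested loci came closer to it than *OsCESA9*. *OsIRX10* and *OsXAX1* had a correlation of 0.986 with each other, and *OsIRX10* was nearest, among those 12 genes, to *OsBC1*, a COBRA-like protein of secondary wall cellulose, at 0.980. *OsIRX9* and *OsIRX9L* had a correlation of 0.970. By contrast, the correlation of *OsXAT3* with the 11 lowered secondary wall genes ran from -0.64 to -0.03 and that of *OsXAT2* from 0.026 to 0.608. The 6 libraries form 3 genotypes of 2, and many loci share such profiles: 485 loci had a correlation of at least 0.95 with *OsIRX14*, 423 with *OsIRX10* and 382 with *OsXAX1*. These values are descriptions over 6 libraries.

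A wider list of 27 loci linked to xylan synthesis and decoration was drawn from general knowledge of rice gene families. It holds 7 further GT43 loci, 4 further GT47 loci, 1 GT61 locus, 3 loci for UDP-arabinopyranose mutases, which supply the arabinose donor, 10 loci for BAHD acyltransferases, some of which attach ferulate or coumarate, and 2 for xylan deacetylases. Neither the files nor the reference pair these locus names with gene names, so their roles are not shown here. All 27 were tested. In OE15, 14 passed the test and were lower and 2 were higher, and in OE20, 3 were lower and 1 was higher. Over all loci tested the shares were 9.89% lower and 10.5% higher in OE15 and 5.47% lower and 6.4% higher in OE20. With the limit of 1.5-fold, 1 of the 27 loci was lower in OE15 and none in OE20. Over all loci tested these shares were 2.59% and 1.64%, so the counts are near them. At an unadjusted p under 0.05 from limma, 17 of the 27 differed in OE15 and 11 in OE20, beside 34.5% and 27.4% of all loci tested. The median log2 fold change of the list was -0.14 in OE15 and -0.03 in OE20, so it lay nearer to 0 than that of the 7 genes in both lines.

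The 1 locus called was LOC_Os06g49300, the GT61 entry of the list. It had 7.08 and 7.74 FPKM for WT, 4.20 and 4.59 for OE15 and 6.78 and 6.60 for OE20. The OE15 libraries lay apart from the other 4. It fell in OE15 by 0.74 on the log2 scale (SE 0.088 with a limma adjusted p of 0.0016), whereas the log2 fold change in OE20 was -0.14 (95% interval -0.35 to 0.06, adjusted p = 0.345). OE15 was lower than OE20 by 0.60 on the log2 scale (adjusted p = 0.0082), which was no longer under 0.05 without OE15 replicate 1 or OE20 replicate 1 (0.0587 and 0.0624). Both deacetylase entries and 2 of the 3 mutase entries also passed the test as lower in OE15, and none of the 5 entries of these groups passed in OE20. In the other groups, 5 BAHD, 3 GT43 and 1 GT47 loci were lower in OE15, and 1 BAHD and 1 GT43 locus were higher. In OE20, 2 BAHD loci and 1 GT43 locus were lower, and 1 GT43 locus was higher.

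In the other groups of the list the locus with the highest WT level was taken. For the further GT47 loci this was LOC_Os01g70180, at 32.4 FPKM in the WT. It did not pass the test in OE15 (adjusted p = 0.289 from limma) or in OE20 (adjusted p = 0.732). LOC_Os01g18744 was at 490 ± 17.0 FPKM (SD, n = 2) for WT, 507 ± 8.08 for OE15 and 504 ± 5.26 for OE20, within 95% intervals of the log2 fold change of -0.03 to 0.13 and -0.04 to 0.12. LOC_Os03g40270 fell from 425 ± 11.7 FPKM to 377 ± 4.55 FPKM in OE15 (adjusted p = 0.0109 from limma) and was at 446 ± 8.49 FPKM in OE20 (adjusted p = 0.23). LOC_Os02g15230 fell from 82.6 ± 2.098 to 61.8 ± 2.81 FPKM in OE15 (adjusted p = 0.000841) and was at 74.8 ± 1.06 FPKM in OE20 (adjusted p = 0.0793). LOC_Os04g55670 fell from 46.2 ± 0.684 FPKM to 39.4 ± 0.737 FPKM in OE15 (adjusted p = 0.00997) and was at 43.6 ± 1.45 FPKM in OE20 (adjusted p = 0.243). These 3 falls were between the sizes of the backbone genes *OsIRX9L* and *OsIRX10* in OE15.

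**Figure D4:**
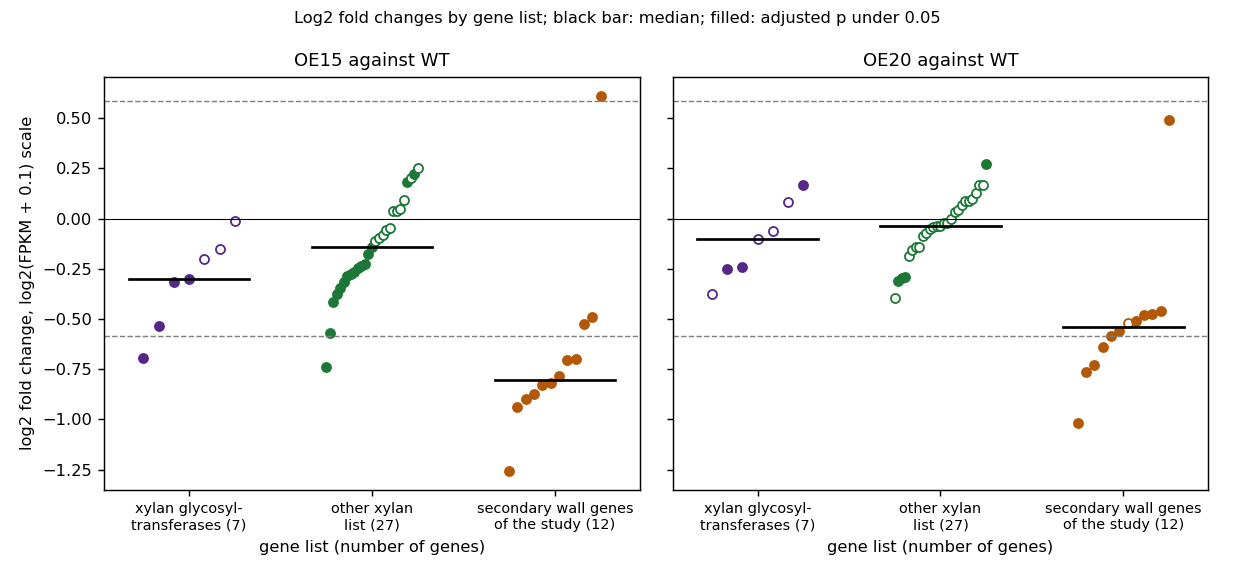
Log2 fold changes on the log2(FPKM + 0.1) scale (y axis) in OE15 against WT and OE20 against WT for the 7 xylan glycosyltransferases, the 27 loci of the wider xylan list and the 12 secondary wall genes of the study (x axis). Points are genes, filled where the adjusted p is under 0.05, black bars are medians and dashed lines mark 1.5-fold. The medians in OE15 are -0.30, -0.14 and -0.80.

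The loci beside the members on the chromosome were counted as well. Within 5 listed loci on each side, 68 other loci were found, of which 30 were tested. None was called lower in either line (backgrounds 2.59% in OE15 and 1.64% in OE20). In OE15, 1 was called higher, beside a background of 2.9%, and in OE20 none was (1.46%). With 30 loci tested, these counts are near those shares. The locus called was LOC_Os01g48446, listed 2 places after *OsIRX9L*. It had 2.01 and 1.62 FPKM for WT, 4.31 and 4.38 for OE15 and 2.41 and 3.13 for OE20, and it rose in OE15 by 1.22 on the log2 scale (adjusted p = 0.00297 from limma), where *OsIRX9L* itself was at -0.15. *OsXAX1* and *OsXAT2* lie near each other on chromosome 2, with 8 listed loci between them.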

How the data were processed

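Roots of WT, OE15 and OE20 were measured by RNA-seq. Per the labels and the series text, the authors used FastQC 0.11.8, Trimmomatic 0.38, HISAT2 2.1.0 and Cufflinks 2.2.1, and deposited 1 FPKM value per locus and library. The genome build, the annotation release, the strand setting and the handling of reads that map to several loci are not given in the sources used here.

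From the deposited FPKM, 4 locus names listed more than once were left out. Testing was limited to the 20627 loci whose mean reached 1 FPKM, and used limma 3.58.1 in R 4.3.3 (trend, 1 fit of 3 genotypes, 3 residual degrees of freedom) on log2(FPKM + 0.1), which understates changes of low genes. The procedure was tested on simulated data with changes of 1 on the log2 scale. These were larger than those of the 7 members, so the test does not show how well changes of their size are found. FPKM holds no read totals, so no counting interval is given. No 2 libraries had identical values. The named genes are the 7 members, *OsMYB305*, the 3 *OsCESA* genes, loci of the wider list that were called or had the highest WT level of their group, the nearest profiles, and called neighbours. LOC_Os01g70190 was added after its values were seen. The members, lists and tests were chosen with earlier results of these data known. Alternatives were the pseudocount (1 or 0.01), the minimum mean (none or 5 FPKM), quantile and median-ratio scaling, the replicate block, separate fits, no trend, no fold limit, an adjusted p under 0.01 and each library left out. Median-ratio scaling of the ranges was added after the data were seen. No sequences were used here. The reference gene table (assembly ASM3414082v1) lists 4 of the 7 names, on the same chromosomes.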

Additional observations from a re-analysis of the deposited data

Results flagged for a closer look

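The difference between OE15 and OE20 was tested with limma, and it passed for 4 of the 7 members, for *OsMYB305*, for some of the secondary wall genes and for some loci of the wider xylan list. The log2 difference of OE15 minus OE20 was -0.28 for *OsIRX10* (adjusted p = 0.00595 from limma), -0.20 for *OsXAX1* (0.0185), -0.28 for *OsXAT2* (0.0306) and -0.18 for *OsXAT3* (0.0268). It was 0.89 for *OsMYB305* (0.000886). Of the 12 secondary wall genes 4 passed, all lower in OE15, beside 6.12% of the loci tested. Among them were *OsCESA4* at -0.22 (0.0107), *OsCESA7* at -0.23 (0.0265) and *OsBC1* at -0.35 (0.00742). Of the 27 loci of the wider xylan list 8 passed, all lower in OE15. Among these were LOC_Os06g49300 at -0.60 (0.0082), LOC_Os03g40270 at -0.24 (0.00584), LOC_Os02g15230 at -0.27 (0.0102) and LOC_Os01g70190 at -0.22 (0.0368). All 4 members and the 2 *OsCESA* genes were lower in both OE15 libraries than in both OE20 libraries, as were 28.1% of the loci tested. They are listed because they passed the test on these same libraries, so this order adds no support.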

How the results depend on the processing

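The count of members called in OE15 was 1, and it was 0 with a pseudocount of 1, with no minimum mean, with a minimum mean of 5 FPKM (which leaves *OsIRX9* out) and at an adjusted p under 0.01, and 4 with no fold limit. Leaving out 1 library gave 0 to 1 members in OE15 and 0 to 0 in OE20 and between the lines. With no fold limit, 3 members passed in OE20 and 4 between the lines. The shares over all loci tested were 5.47% lower and 6.4% higher in OE20, and 6.12% lower and 5.45% higher between the lines. Of all 20627 loci tested, 535 were called lower and 599 higher in OE15. With a pseudocount of 1 these counts were 411 and 456, and at an adjusted p under 0.01 they were 371 and 412. With no fold limit they were 2041 and 2176. For the wider xylan list, the count called in OE15 was 2 under quantile normalization and under median-ratio scaling, against 1, and 16 with no fold limit. That list gave 4 in OE20 and 8 between the lines with no fold limit, 0 between the lines with a pseudocount of 1, and 1 to 2 in OE15 and 0 to 1 between the lines when a library was left out. For the secondary wall genes of the study, the count in OE20 was 3 with a pseudocount of 1 and 11 with no fold limit, against 5, and 4 differed between the lines with no fold limit. Leaving out 1 library gave 9 to 10 of them in OE15 and 3 to 5 in OE20. Without a trend, *OsIRX14* and *OsIRX10* lost the adjusted p under 0.05 in OE20 (0.056 and 0.0593), and no member passed between the lines. The falls of *OsIRX10*, *OsIRX14* and *OsXAX1* in OE15 passed the test in all 17 alternatives. The cause of these shifts was not tested.

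The deviations of same-numbered libraries had a correlation of 0.0226, 0.0314 and -0.0685 between genotypes, so no deviation shared by number was seen. Which culture or batch the replicate number stands for is not stated. With it as a replicate block, 1 member was called in OE15, 0 in OE20 and 0 between the lines, and among the members the adjusted p of *OsXAT3* in OE20 (0.0505) was the only one to cross 0.05. With 2 libraries per genotype the spread is estimated from all genotypes together and in part from other loci. For *OsIRX9*, at 3.08 FPKM in the WT, the low level limits the precision.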

Other observations

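Outside the genes named in the study, the loci whose profiles came nearest to the members carry no gene name in the files or the reference. For *OsIRX14* these were LOC_Os01g42900, at 3.36 and 3.71 FPKM for WT, 1.86 and 1.89 for OE15 and 2.30 and 2.12 for OE20, and LOC_Os01g01450 (Pearson correlation 0.999 and 0.998 over 6 libraries). For *OsXAX1*, the nearest was LOC_Os06g01590, at 273 and 280.0 FPKM for WT, 136 and 143 for OE15 and 209 and 219 for OE20, a wider span than that of *OsXAX1* itself, and then LOC_Os03g20260 (0.999 and 0.998). For *OsIRX10* they were LOC_Os01g43710 and LOC_Os09g26830 (0.9997 and 0.9996), for *OsIRX9* LOC_Os07g14350 and LOC_Os05g01350 (0.995 and 0.995), and for *OsIRX9L* LOC_Os02g47010 and LOC_Os01g57440 (0.998 and 0.996). For *OsXAT2* they were LOC_Os03g48080 and LOC_Os10g36870 (0.994 and 0.993) and for *OsXAT3* LOC_Os03g52720 and LOC_Os01g04190 (0.999 and 0.997).

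The replicate spread of the members differed. *OsXAX1* had a residual SD of 0.0135 on the log2 scale, at the 3.07th percentile of the 2408 loci of like level, whereas *OsIRX9* had 0.18 beside a median of 0.149 for its level.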
